A study of Mus musculus with 4 samples.

Results

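The endothelin system was examined in heart muscle cells of mice after transverse aortic constriction (TAC), surgery that narrows the aortic arch so that the left ventricle pumps against a lasting pressure load. The 7 members were the 3 ligand genes Edn1, Edn2 and Edn3, the 2 receptor genes Ednra and Ednrb, and the 2 converting enzyme genes Ece1 and Ece2. They were taken by symbol from the 22322 genes of each library, and each symbol had 1 gene. The group was chosen because Edn3 was higher in TAC, so the TAC and sham values of Edn3 are given as a description, with no test.

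RNA was sequenced from cardiomyocytes of 2 sham-operated and 2 TAC mice, all male, with no allele named in the labels or methods. Per the methods of the study, TAC was done on adult mice under ketamine and xylazine anaesthesia and hearts were taken weeks later, in the heart failure stage. Cells were released by Langendorff perfusion, a digestion of the heart with enzymes by way of its coronary vessels, and the myocytes of each heart were divided among tubes for different assays. No strain was named in the labels or methods. The libraries held 24237777 to 32118323 expected counts, and 14495 to 14949 genes had a count. The 13 protein-coding mitochondrial genes took 39.84% to 40.85% of the counts in 3 libraries and 47.42% in TAC 1. The 10 cardiomyocyte markers (Myh6, Tnnt2, Ryr2 and others) were detected in every library and summed to between 62230 and 69785 CPM, a count put on a common library size. Markers of other cell types were also detected, with sums of 319 to 669 CPM over 12 endothelial and 440 to 796 CPM over 10 mural markers. Most of the mural sum was Abcc9 (279 to 406 CPM) and Rgs5 (104 to 221 CPM), while Pdgfrb was at 11.8 to 28.8 CPM. The sums therefore do not rank the cell types by amount.

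Endothelins are short secreted peptides cut from long precursors. Furin-type proteases first release an inactive intermediate, and the endothelin-converting enzymes, membrane metalloproteases, then trim it to the active peptide. The peptides act on a pair of G protein-coupled receptors: the A receptor (Ednra) prefers endothelin-1 and endothelin-2, while the B receptor (Ednrb) binds all of the peptides about equally well. In the heart, endothelin-1 is made mainly by endothelial cells and raises contraction, vessel tone and myocyte growth. Endothelin-3 with Ednrb is best known for guiding neural crest cells that become gut neurons and pigment cells.

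The 3 ligand genes encode mature peptides of 21 residues. The coding stretch of each lies in exon 2 on the plus strand (GRCm38/mm10, GENCODE M21) and directly follows a pair of basic residues. They are shown because the results turn on which of the ligand genes was read. The capitals mark the 4 cysteine codons.
Edn1, chr13:42303649-42303711: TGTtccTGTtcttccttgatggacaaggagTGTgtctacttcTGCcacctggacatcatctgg
Edn2, chr4:120161951-120162013: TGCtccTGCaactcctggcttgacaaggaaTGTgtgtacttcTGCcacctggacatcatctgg
Edn3, chr2:174761749-174761811: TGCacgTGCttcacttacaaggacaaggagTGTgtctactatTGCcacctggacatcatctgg
Edn1 and Edn2 differed at 10 of these 63 bases and at 3 of 21 residues. Edn3 differed from Edn1 at 13 bases and 6 residues, and from Edn2 at 15 bases and 6 residues. The peptide stood at residues 53 to 73 of a precursor of 202 residues for Edn1, and at residues 46 to 66 of 175 for Edn2. Edn3 had 2 coding transcripts, with the same peptide stretch at residues 97 to 117 of 214 or at residues 53 to 73 of 166. All 3 genes had whole-number counts in all 4 libraries.

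Edn3 (ENSMUSG00000027524, chr2:174760619-174784042, plus strand) was the ligand gene whose level was high after TAC. It had 111 counts in sham 1 and 92 in sham 2, against 653 in TAC 1 and 359 in TAC 2. On the CPM scale this was 3.51, 3.20, 23.4 and 14.7, a mean of 3.35 ± 0.220 in sham and 19.1 ± 6.18 in TAC (SD, n = 2). Both TAC libraries stood far above both sham libraries, and TAC 1 was the higher of the TAC pair. The log2 fold change was 2.51. Per transcript length, the deposited FPKM (fragments per kilobase, set against the size of the library) was 1.27, 1.11, 6.59 and 4.75 in the same order, and the ratio of the FPKM means was 2.25 on the log2 scale. The length implied by count, FPKM and library total was between 2.995 and 3.118 kb, close to the longest Edn3 transcript of 3117 bases.

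**Figure D1:**
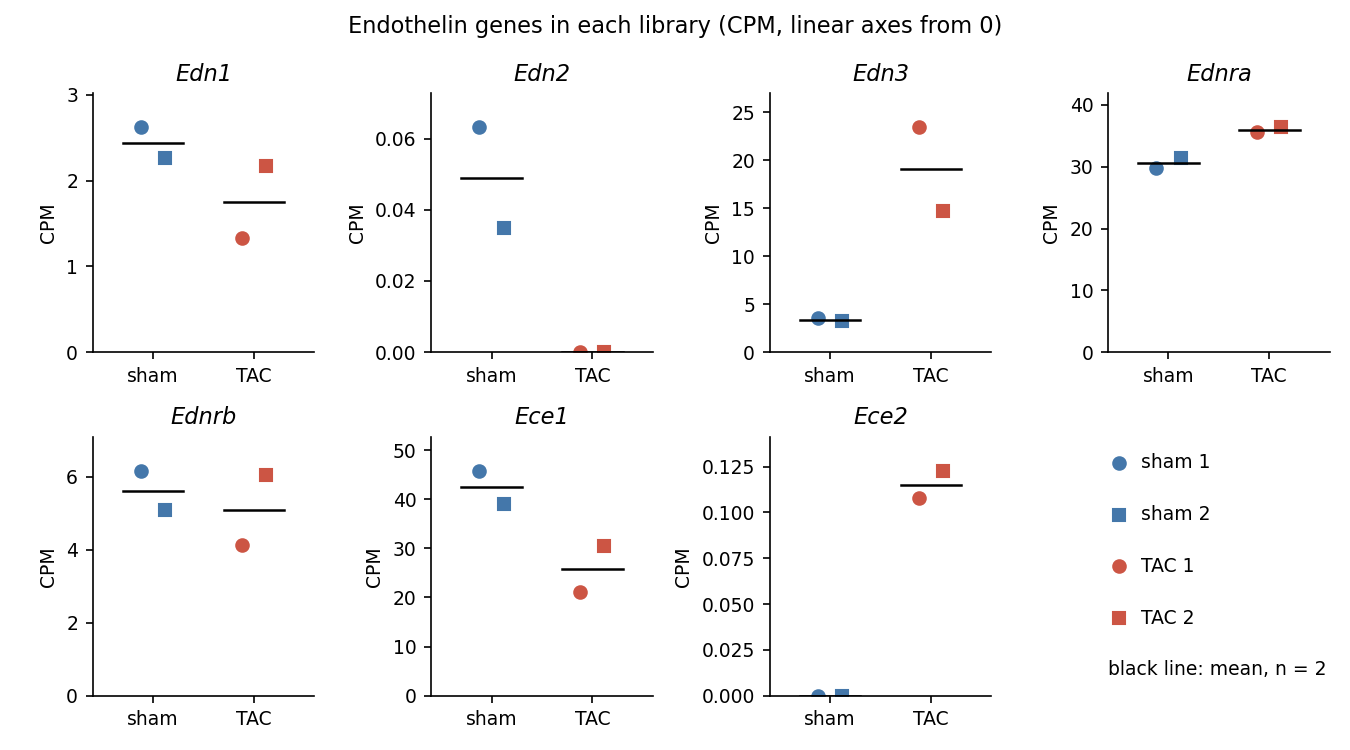
CPM of the 7 endothelin genes (linear vertical axes from 0, own scale per gene) in 2 sham (blue) and 2 TAC (red) libraries, with circles for library 1, squares for library 2 and a black line for the mean. Edn3 went from 3.20 and 3.51 CPM in sham to 14.7 and 23.4 in TAC, while Ednrb overlapped between the groups and Edn2 and Ece2 had at most 3 counts in any library.

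Endothelin-3 is linked to pigment cells, so 5 melanocyte genes were read beside Edn3. They summed to 4.48 and 4.93 CPM in sham and to 10.6 and 11.9 in TAC. Nearly all of this was Dct (dopachrome tautomerase, a melanin enzyme), at 4.49, 4.45, 10.47 and 11.7 CPM. Dct rose, with a log2 fold change of 1.31 ± 0.15 (SE) and an edgeR adjusted p of 0.00661, and was called in each alternative but the crossed replicate block, which was not run for single genes. Tyr, which encodes tyrosinase, the enzyme that defines pigment-making cells, had no count in any library, and Tyrp1, Pmel and Mlana stayed at or under 0.253 CPM. The 8 glial and neuronal markers summed to 3.44 and 3.93 CPM in sham and 2.47 and 2.82 in TAC. Their part in the Edn3 result was not tested.

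The genes around Edn3 on chromosome 2 had other levels. On the side of lower coordinates, Zfp831 was nearest, 49786 bases away, with counts of 3, 2, 0 and 1. Prelid3b, which encodes a mitochondrial lipid transfer protein and lies 287537 bases away, was at 31.8, 32.8, 43.9 and 40.3 CPM. Its log2 fold change was 0.38 ± 0.09 (edgeR adjusted p = 0.0494), and the call was lost with scaling by total counts (0.19, adjusted p = 0.376) and when sham 1, sham 2 or TAC 1 was left out (adjusted p of 0.0892 to 0.157). Atp5e, a subunit gene of ATP synthase, had 77.7, 84.6, 91.7 and 110 CPM, a log2 fold change of 0.31 ± 0.10 and an adjusted p of 0.106. On the other side, Gm14444 was nearest at 226198 bases and had no count in any library. Gm14393 had at most 2 counts, and Gm14399 had 1.42, 1.49, 1.90 and 1.59 CPM with a log2 fold change of 0.26 ± 0.29.

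Over all genes that averaged 1 CPM or more, the 5 whose centred log2 CPM over the 4 libraries lay nearest to that of Edn3 were Nr4a3, Rcan1, Abra, Aqp8 and Nppb. The Euclidean distances were 0.367, 0.41, 0.475, 0.486 and 0.487. Nr4a3, an orphan nuclear receptor gene, had 2.50, 2.15, 12.8 and 11.2 CPM. Rcan1, which encodes an inhibitor of the phosphatase calcineurin, had 92.9, 61.1, 398 and 308 CPM. Nppb, which encodes the natriuretic peptide BNP, had 163, 171, 760 and 471 CPM, with TAC 1 above TAC 2 as in Edn3. Abra, the gene of an actin-binding protein of striated muscle, had a log2 fold change of 2.05, and Aqp8, a water channel gene, of 1.97. The likeness rests on 4 libraries and describes the shape of the pattern only.

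Edn1 (ENSMUSG00000021367, chr13:42301476-42307990), the ligand best known in the heart, was low and did not pass the test. It had 83 and 65 counts in sham and 37 and 53 in TAC, which was 2.62, 2.26, 1.33 and 2.17 CPM. Both TAC libraries were below both sham libraries, and TAC 2 was close to sham 2. Such a lack of overlap was common, at 60.1% of the 12499 genes tested. The log2 fold change was -0.49 ± 0.31 (SE), with a 95% confidence interval of -1.22 to 0.24 and an edgeR adjusted p of 0.344. Without TAC 1 it was -0.17. P-values here measure the spread between these 4 libraries, and with 2 against 2 libraries no exact permutation p for 1 gene can be under 0.333.

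Edn2 (ENSMUSG00000028635, chr4:120161206-120167360), expressed chiefly in the gut and ovary, had 2 and 1 counts in sham and none in TAC. A count of 0 allows up to 3 counts, or 0.108 CPM in TAC 1 and 0.123 CPM in TAC 2, and this limit covers counting error only. All 4 values were under that limit, so Edn2 gives no comparison.

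The make-up of the ligand mRNA therefore differed between the groups. Edn3 held 47.6% and 49.8% of the summed ligand FPKM in the sham libraries, level with Edn1. It held 92.4% in TAC 1 and 82.3% in TAC 2. The ratio of Edn3 to Edn1 FPKM was 0.941 and 1.01 in sham, 12.2 in TAC 1 and 4.66 in TAC 2, so its size in TAC differed widely between the libraries. The summed ligand FPKM was 2.67 and 2.23 in sham and 7.13 and 5.77 in TAC. These shares include the Edn3 values that chose the group, and are a description.

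**Figure D2:**
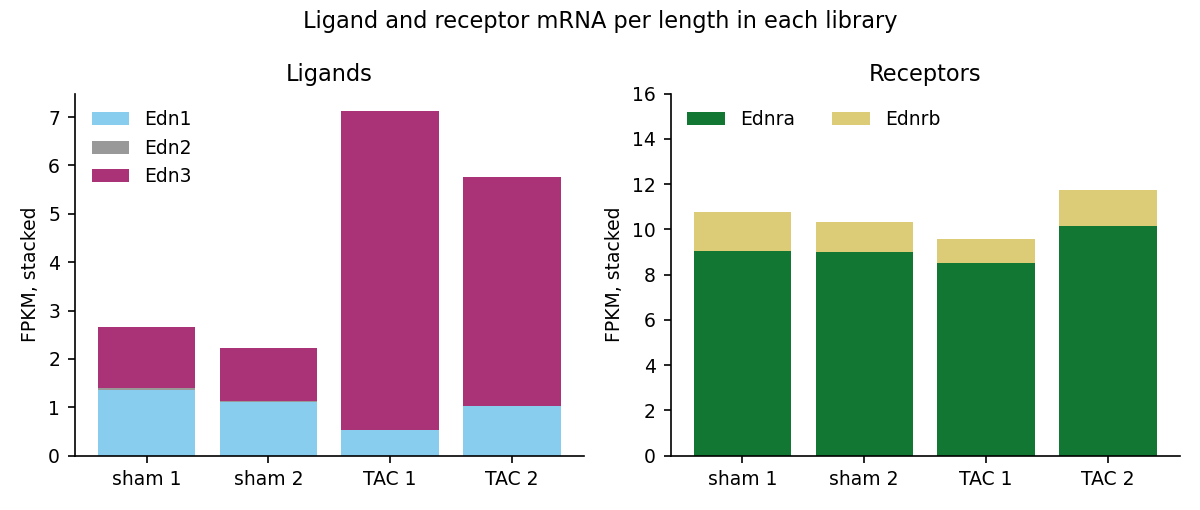
Deposited FPKM of the ligand genes (left) and receptor genes (right), stacked within each of the 2 sham and 2 TAC libraries on linear axes from 0. Edn3 takes 92.4% of the ligand stack in TAC 1 and 82.3% in TAC 2, while the receptor stacks of both groups lie between 9.57 and 11.74 FPKM.

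Of the 6 members other than Edn3, 4 passed the filter on low counts and none was called at an edgeR adjusted p under 0.05, against 5.01% of all genes tested (2.58% called higher and 2.43% called lower). The unadjusted p was under 0.05 for 2 of the 4, Ednra and Ece1, against 27.5% of all genes tested. DESeq2 called 1, Ece1, against 8.56% of the genes it gave an adjusted p.

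Ednra (ENSMUSG00000031616, chr8:77663031-77724464, minus strand), the receptor that cardiomyocytes and smooth muscle cells mainly carry, was the more abundant receptor mRNA. Its counts were 943, 904, 992 and 890, or 29.8, 31.4, 35.6 and 36.4 CPM. Both TAC libraries were above both sham libraries on this scale, by 0.23 ± 0.08 (SE) on the log2 scale, with a 95% interval of 0.04 to 0.43 and an edgeR adjusted p of 0.130. In FPKM the groups overlapped, at 9.02 and 9.01 in sham against 8.52 and 10.13 in TAC. With scaling by total counts, which the study used, the log2 fold change was 0.05. That scaling set the median of all genes at -0.20, while it was -0.01 with the TMM scaling used here.

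Ednrb (ENSMUSG00000022122, chr14:103814625-103844402, minus strand), the receptor that endothelial cells carry, had 195, 146, 115 and 148 counts. The CPM values were 6.16, 5.07, 4.12 and 6.05, so TAC 2 lay between the sham libraries and the groups overlapped. The log2 fold change was -0.15 ± 0.23, with a 95% interval of -0.68 to 0.38 and an edgeR adjusted p of 0.699. It was 0.00 without sham 1 and 0.11 without TAC 1, so its direction was not fixed by these data.

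Ednra exceeded Ednrb in every library when compared per length. The ratio of their FPKM was 5.13 and 6.88 in sham and 8.11 and 6.29 in TAC, and the groups overlapped. The 2 receptors summed to 10.78 and 10.32 FPKM in sham and to 9.57 and 11.74 in TAC. The receptor total thus overlapped between the groups.

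Ece1 (ENSMUSG00000057530, chr4:137862237-137965229, plus strand), the main converting enzyme of the vessel wall and heart, gave different answers in counts and in FPKM. Its counts were 1449 and 1124 in sham and 591 and 747 in TAC, or 45.8, 39.1, 21.2 and 30.5 CPM. The means were 42.4 ± 4.76 and 25.9 ± 6.61 CPM (SD, n = 2), and the groups did not overlap. The log2 fold change was -0.72 ± 0.17 (SE), with a 95% interval of -1.11 to -0.33. The edgeR adjusted p was 0.0545, just over the threshold, and with DESeq2 it was 0.0014. In FPKM the same libraries stood at 11.34, 9.13, 13.28 and 7.64, so TAC 1 was the highest and TAC 2 the lowest. On log2(FPKM + 0.1) the limma log2 fold change was -0.01 and its adjusted p 0.981.

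The disagreement rested on TAC 1. Count, FPKM and library total together imply a transcript length, which was 4.43 kb in sham 1, 4.45 kb in sham 2 and 4.03 kb in TAC 2, but 1.39 kb in TAC 1. The longest Ece1 transcript has 4816 bases, and the other 3 have 728, 321 and 172 bases. The longest implied length was 3.21 times the shortest. Among the 4134 genes with at least 500 counts in every library, the median of this ratio was 1.015, and 2 genes (0.0484%), Ece1 itself included, reached that of Ece1. It was 1.006 for Edn1, 1.041 for Edn3 and 1 for Ednra, so their counts and FPKM can be read together. For Ednrb it was 1.181, from 3.41 kb in TAC 1 to 4.03 kb in sham 2. Where this stands among genes of like counts was not computed, so FPKM of Ednrb is less sure. For Ece1 counts and FPKM cannot be read together, and without TAC 1 its count-based log2 fold change was -0.47.

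**Figure D3:**
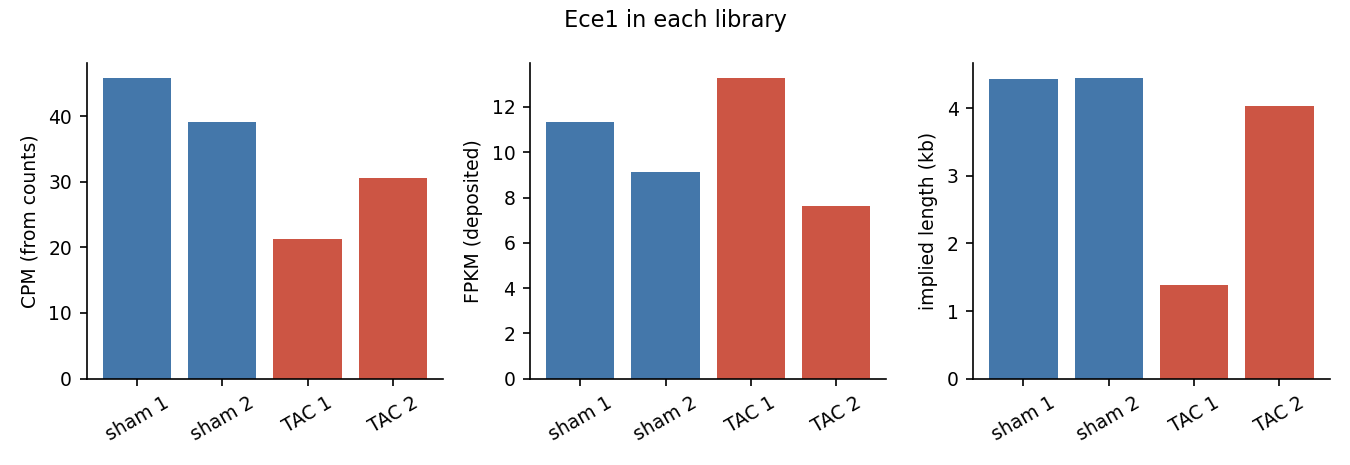
Ece1 in each library as CPM from the counts (left), deposited FPKM (middle) and the length in kb implied by both (right), as bars from 0 in blue for sham and red for TAC. TAC 1 is the lowest in CPM, at 21.2, and the highest in FPKM, at 13.28, and its implied length is 1.39 kb against 4.03 to 4.45 kb in the other libraries.

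Ece2 (ENSMUSG00000022842, chr16:20629828-20646485, plus strand), a converting enzyme best known from nerve cells, had expected counts of 0.03 and 0 in sham and 3 and 3 in TAC. The gene Gm49333 overlaps it on the same strand (chr16:20611610-20645920) and went the other way, with 11 and 9.98 in sham and 0 in both TAC libraries. Summed over both genes the counts were 11.03, 9.98, 3 and 3. Reads of the shared stretch may be divided between these genes by the counting, so neither gene was compared. Whether their exons overlap was not examined.

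In the order of FPKM means in sham, Ece1 came first at 10.2 ± 1.56, then Ednra at 9.02 ± 0.00707, Ednrb at 1.54 ± 0.318, Edn1 at 1.23 ± 0.177 and Edn3 at 1.19 ± 0.113 (SD, n = 2). Ednrb and Edn1 overlapped there, as did Edn1 and Edn3. In TAC the order was Ece1 at 10.46 ± 3.99, Ednra at 9.33 ± 1.14, Edn3 at 5.67 ± 1.3, Ednrb at 1.33 ± 0.396 and Edn1 at 0.78 ± 0.339. Edn3 moved from the fifth place to the third, apart from its neighbours in both TAC libraries, while Ece1 and Ednra overlapped. The first place of Ece1 in TAC rested on TAC 1, whose FPKM could not be read with its count, and in TAC 2 Ednra (10.13) was above Ece1 (7.64). Ednrb and Edn1 were 0.03 FPKM apart at their nearest values, less than the SD of either, but these came from different TAC libraries. Within each library Ednrb was above Edn1. In sham 1 and sham 2 it was at 1.76 against 1.35 and 1.31 against 1.10 FPKM. In TAC 1 and TAC 2 it was at 1.05 against 0.54 and 1.61 against 1.02.

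Edn1, Ednrb and Ece1 are endothelial genes in the normal heart, so endothelial markers were read beside them. The 12 endothelial markers summed to 669 and 527 CPM in sham and to 319 and 446 in TAC. All 12 had a negative log2 fold change, with a median of -0.62, and 3 of them (Cdh5, Egfl7 and Esam) fell at an edgeR adjusted p under 0.05, where 2.43% of all genes fell. With limma on log2(FPKM + 0.1) Egfl7 (adjusted p = 0.0552) and Esam (0.0615) were not called. Without TAC 1 the calls of Egfl7 (adjusted p = 0.162) and Esam (0.103) were lost, and Egfl7 was also lost without sham 1 (0.137). In bulk RNA, fewer cells of a type and less RNA per cell cannot be told apart. Per 1000 CPM of these markers, Edn1 stood at 3.92 and 4.29 in sham and at 4.16 and 4.86 in TAC, and Ece1 at 68.5 and 74.1 in sham and at 66.4 and 68.5 in TAC. Both overlapped between the groups on this scale. Ednrb stood at 9.22 and 9.63 in sham and at 12.9 and 13.6 in TAC, with both TAC libraries above. These ratios and the part of the markers in the values of Edn1, Ednrb and Ece1 were not tested.

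**Figure D4:**
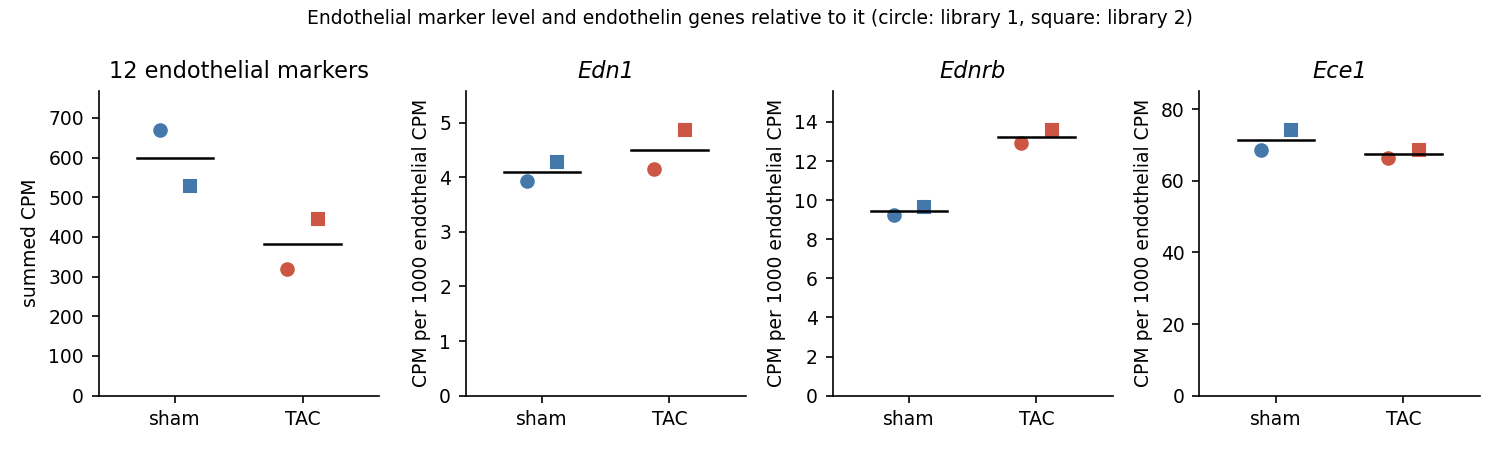
Summed CPM of 12 endothelial markers (left) and CPM of Edn1, Ednrb and Ece1 per 1000 CPM of those markers, in 2 sham (blue) and 2 TAC (red) libraries, with circles for library 1, squares for library 2 and black lines for means on linear axes from 0. The markers go from 527 and 669 CPM in sham to 319 and 446 in TAC, and relative to them Edn1 and Ece1 overlap between the groups.

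Genes that process, receive and pass on the endothelin signal were read from a list of 56, of which 51 were tested. None rose and 3 fell (Fos, Jun and Itpr3), against 2.58% and 2.43% of all genes. The log2 fold change was positive for 13 and negative for 38, from -2.66 to 0.18, with a median of -0.38 where the median of all genes was -0.01. The medians of the mural, fibroblast and macrophage markers were -0.78, -0.78 and -0.92. Cardiomyocyte markers had 0.04, and Dct, the only melanocyte gene tested, had 1.31. The part of these cell types in the pathway values was not tested. The unadjusted p was under 0.05 for 19 of the pathway genes, all with negative values, where it was for 27.5% of all genes. DESeq2 called none of them higher and 6 lower, where it called 447 higher and 478 lower of 10802 genes. With a library left out, the number of pathway genes that fell changed with the library, as did the calls over all genes.

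Furin-type proteases, which make the first cut in the endothelin precursors, were not called by edgeR, and 2 of 4 had an unadjusted p under 0.05, against 27.5% of all genes. Furin was at 82.5, 76.3, 86.5 and 85.9 CPM. Pcsk6 had the lowest p of these 4 genes, at 18.2, 13.1, 5.99 and 9.82 CPM, a log2 fold change of -1.0 ± 0.25 and an edgeR adjusted p of 0.0619, while DESeq2 called it (0.00272). Of the proteases related to the converting enzymes, Ecel1 and Kel had no count in any library and Mmel1 had 1, 0, 4 and 6. Neprilysin (Mme), which breaks endothelins down, had a log2 fold change of 0.02. Ctsa, another peptidase that degrades endothelin-1, had 0.06 and an adjusted p of 0.620. The chymases, mast cell proteases that can also cut the precursor, were near the limit of detection, with 13, 6, 6 and 5 counts for Cma1 and a log2 fold change of -1.08 ± 0.62 (adjusted p = 0.298) for Mcpt4.

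The 6 G protein genes that couple to the receptors had log2 fold changes between -0.14 and 0.05, and 0 of them had an unadjusted p under 0.05, where 27.5% of all genes had. Gnai2, with the lowest p, was at 97.3, 86.2, 81.2 and 86.5 CPM (edgeR adjusted p = 0.358). One step further, all 6 genes of phospholipase C and the IP3 receptors had negative values, with a median of -0.40. Of these, 1 was called lower, against 2.43% of all genes, and 5 had an unadjusted p under 0.05, against 27.5%. The called gene was Itpr3, the type 3 IP3 receptor, a calcium release channel. It fell by 1.10 ± 0.24 on the log2 scale, from 5.53 and 5.0 CPM in sham to 2.01 and 2.94 in TAC (edgeR adjusted p = 0.0465). The call was lost without sham 1 (adjusted p = 0.0845), without TAC 1 (0.132) and with limma on FPKM, where the log2 fold change was -1.03 (0.134) or, with the larger pseudocount of 1, -0.37 (0.112). Itpr1, at 25.4, 25.4, 19.9 and 18.4 CPM, and Itpr2 were not called.

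Of the protein kinase C and D genes, Prkd1 had the lowest p, with a log2 fold change of -0.68 ± 0.21 and an edgeR adjusted p of 0.0994. Prkca, the main protein kinase C of the myocyte, was at 33.3, 34.3, 33.5 and 34.4 CPM. None of the 10 genes that quench receptor signals was called by edgeR, and 4 had an unadjusted p under 0.05, where 27.5% of all genes had. The nearest was Rgs5, also one of the mural cell markers here, at 221, 207, 104 and 159 CPM, with a log2 fold change of -0.70 ± 0.17 and an adjusted p of 0.0618. The 10 mural markers, most of whose sum is Rgs5 itself and Abcc9, summed to 758 and 796 CPM in sham and to 440 and 579 in TAC. All 10 had a negative log2 fold change, and 2 were called lower by edgeR, where 2.43% of all genes were. These were Abcc9 (adjusted p = 0.0310), at 380, 406, 279 and 303 CPM, and Pdgfrb (-0.86, adjusted p = 0.0427). With limma on log2(FPKM + 0.1) neither was called (0.0553 and 0.0931). The part of the other markers in the Rgs5 value was not tested. Nos3, the nitric oxide synthase that Ednrb engages in endothelium, had -0.49 ± 0.16 and an adjusted p of 0.111.

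Of 13 regulators and inducers of Edn1 transcription, 2 fell, against 2.43% of all genes, and 5 had an unadjusted p under 0.05, against 27.5%. Both of those that fell belong to the AP-1 factor, which binds the Edn1 promoter, and both were named in the study of these same libraries. Jun fell by 1.79 ± 0.17 on the log2 scale, from 155 and 107 CPM in sham to 41.0 and 34.7 in TAC (edgeR adjusted p = 0.00489). Fos fell by 2.66 ± 0.30, from 127 and 64.3 CPM to 14.1 and 16.2 (adjusted p = 0.00641). Sham 1 held more of both than sham 2, and the groups did not overlap. Gata4, Hif1a, Nfkb1 and Rela had log2 fold changes of 0.03, 0.09, -0.04 and 0.07. Klf2, a flow-sensitive factor of endothelium that represses Edn1, was at 21.2, 13.2, 8.21 and 9.61 CPM, with a log2 fold change of -0.95 ± 0.22 and an adjusted p of 0.0533.

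**Figure D5:**
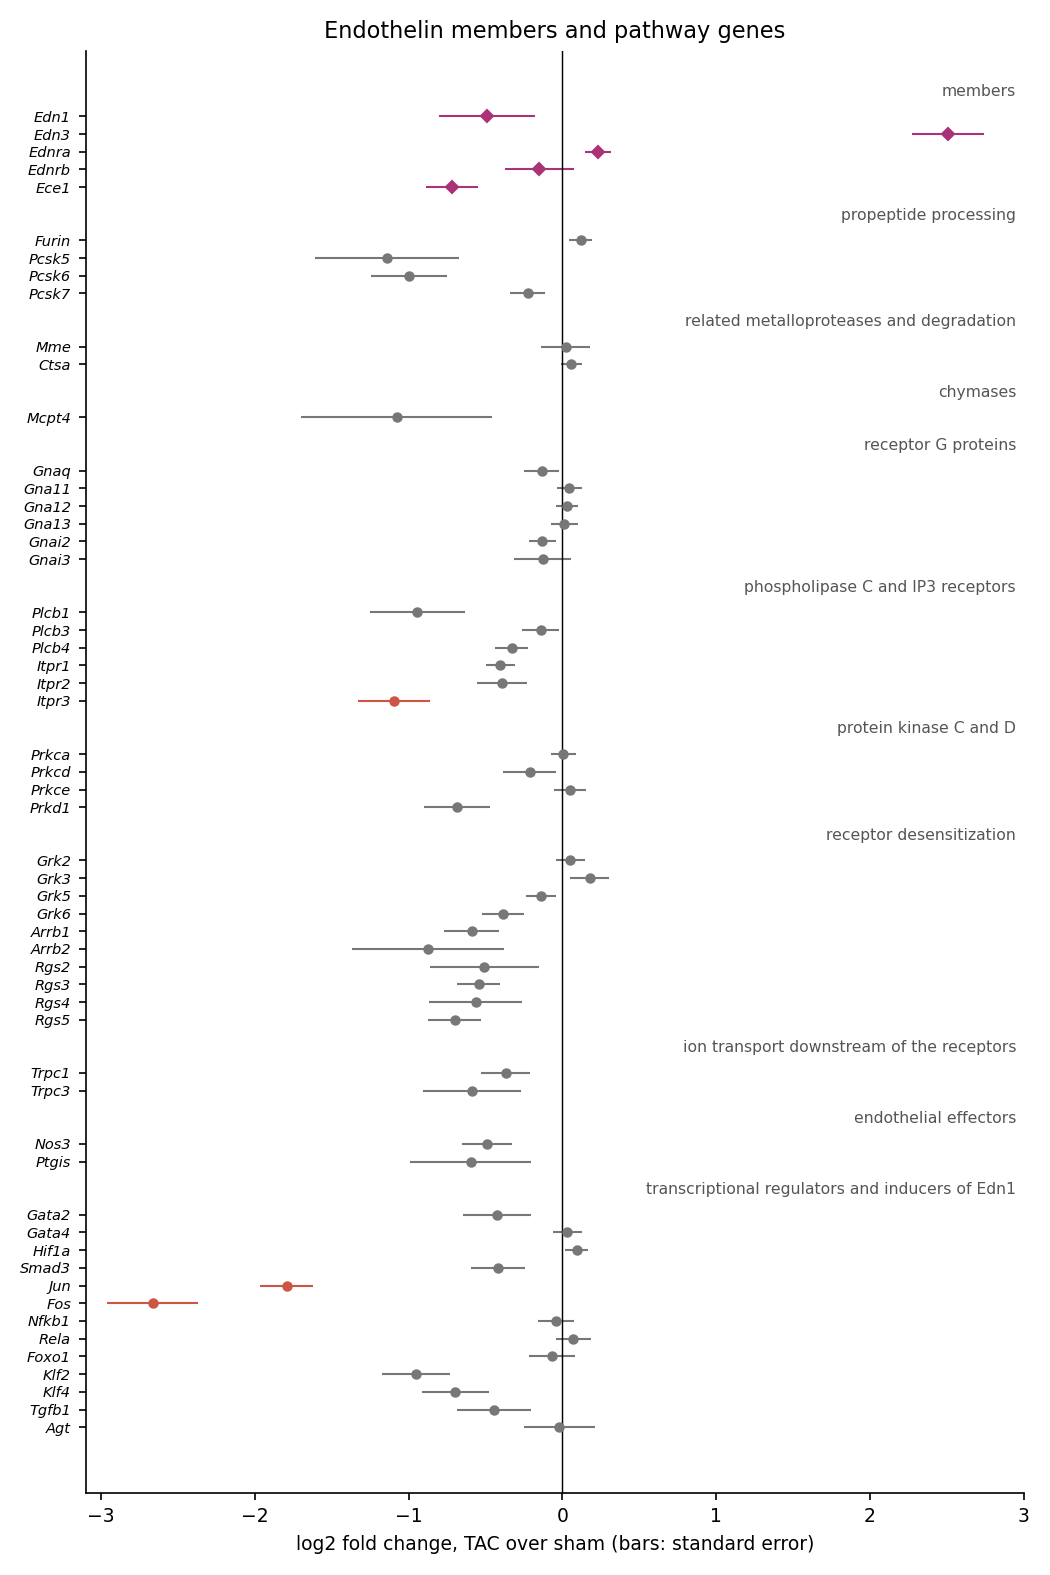
Log2 fold change of TAC over sham with its standard error (bars) for the 5 endothelin members that passed the filter (purple diamonds) and the tested pathway genes but for 1 that is not reported here (circles), grouped by role, with red for an edgeR adjusted p under 0.05. Edn3 lies at 2.51, the pathway genes lie between -2.66 and 0.18, and the red ones are Itpr3, Jun and Fos. The bar of Edn3 is drawn from values that chose the group and is no test.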

How the data were processed

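For each of 4 cardiomyocyte libraries, the authors deposited an expected count per gene (an estimate, not always a whole number) and its FPKM. The submitters' processing notes name mm10, Bowtie2 2.2.8 and StringTie 1.3.1. Neither the counting program nor the annotation or strand setting is named in these sources. The genes Gm47118, 4933431K23Rik and Gm13012 lie opposite Edn1, Ednra and Ece1. Between 1432 and 1519 genes per library had a count that was not whole. Counts were rounded and analysed in R 4.3.3 with edgeR 4.0.16 (filterByExpr, TMM factors of 1.097, 1.04, 0.868 and 1.009, glmQLFit and glmQLFTest). Benjamini-Hochberg adjustment covered all 12499 genes that passed the filter, and calls were made under 0.05. CPM used the TMM-scaled library sizes. The SE is the log2 fold change over the square root of F. The common biological coefficient of variation was 10.5%. Implied length is the count divided by FPKM and by the library total. No replicate pair agreed within sampling noise (chi-square of 8.08 per degree of freedom in sham and 26.7 in TAC), and no pair was counted as 1 sample. Separate libraries of 1 mouse could also differ by more than this noise, so the check cannot tell such libraries from those of different mice. Nothing in the sources says more of how the mice of a group were related.

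Alternatives were scaling by total counts or by totals without mitochondrial genes, DESeq2 1.42.0, no filter, a replicate block, an adjusted p under 0.1, limma 3.58.1 on log2(FPKM + 0.1) and log2(FPKM + 1), and leaving out each library. Tested on simulated data for TAC against sham over 12499 genes, the fit recovered 82% of 2-fold and 97% of 4-fold changes, and 6.77% of its calls were false. The simulation gave every gene the common coefficient of variation of 10.5% and as many rises as falls. Real genes differ in spread, so these rates need not hold for these libraries.

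The members and lists were chosen with earlier results of these data known. Named genes were the 7 members, every called pathway gene or otherwise the gene of lowest p in a group of the pathway list, the 5 genes most like Edn3, and up to 3 neighbours on each side of Edn3. Furin, Ecel1, Kel, Mmel1, Cma1, Mme, Itpr1, Itpr2, Prkca, Gata4, Hif1a, Nfkb1, Rela and Klf2 were added after their values were seen. The gene of lowest p in 1 group of the pathway list is not reported here. Genes of the marker lists were named as defining markers. Coordinates and sequences came from GENCODE M21 (GRCm38), which held 22267 of the 22322 gene IDs.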

Additional observations from a re-analysis of the deposited data

How the results depend on the processing

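Fos, Jun, Dct and Cdh5 kept their call and direction in each alternative but the crossed block, which was not run for single genes, and Itpr3 kept its direction. The alternatives for Dct, Prelid3b and the marker genes were chosen after seeing the data. Ednrb, not called, changed sign without TAC 1 or sham 1. The log2 fold change of Edn3 was 2.15 by limma on log2(FPKM + 0.1) and 1.59 on log2(FPKM + 1), where the pseudocount shrinks low values, and ran from 2.13 (without TAC 1) to 2.80 when 1 library was left out. Ece1 crossed the threshold with total counts (-0.89, adjusted p = 0.0479), DESeq2 (-0.72, 0.0014) and no filter (-0.71, 0.00138), and at an adjusted p under 0.1 (-0.72). With 1 library left out it ran from -1.0 (without TAC 2) to -0.47 (without TAC 1), and was called without sham 1, sham 2 or TAC 2. Members other than Edn3 called lower were thus 1 instead of 0 with total counts, DESeq2, no filter, the looser threshold, the replicate block and the crossed block, and 0 to 1 with a library left out. None was called higher in any alternative.

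Pathway genes called lower (3) numbered 7 with total counts, 5 with totals without mitochondrial genes, 6 with DESeq2, 13 with no filter, 12 at an adjusted p under 0.1, and 2 (without TAC 1) to 13 (without TAC 2) with a library left out, 9 of them without sham 2. All genes called higher (322) numbered 105 with total counts, 188 without mitochondrial genes in the totals, 707 with no filter, 68 and 69 with limma, and 878 at an adjusted p under 0.1. All genes called lower (304) numbered 478 with DESeq2, 969 with no filter, 127 and 145 with limma, and 939 at the looser threshold. Without TAC 1 there were 183 higher and 118 lower, and without TAC 2 560 and 776. The cause was not tested. Total counts turned the split of higher to lower calls from 322 and 304 to 105 and 423.

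The study speaks of pairs of sham and TAC mice but does not say which libraries form a pair, so the replicate numbers are shared numbers only, and deviations of same-numbered libraries correlated at -0.26. With the replicate block, Ece1 was at -0.73 (adjusted p = 0.0337), Pcsk6 at -1.01 (0.0447) and Rgs5 at -0.73 (0.0219), the calls of Prelid3b (0.079) and Egfl7 (0.0628) were lost, 7 pathway genes were called lower and 566 genes were called in all. With a crossed block, chosen after seeing the data, 2131 genes were called (968 higher and 1163 lower), with 11 pathway genes lower.

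With 2 libraries a group, Edn2 and Ece2 (at most 3 counts) could not be compared, and intervals of Edn1 and Ednrb are wide.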

Other observations

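Other cell types were read by lists as well, and their part in the members' values was not tested. The 12 fibroblast markers summed to 297 and 212 CPM in sham and to 132 and 174 in TAC. Dcn, Lum and Dpt fell at an edgeR adjusted p under 0.05, where 2.43% of all genes fell. None of them was called without TAC 1 (0.0821 to 0.105) or with limma on FPKM (0.0601 to 0.0711), and the calls were lost for Dcn with DESeq2 (0.0773), for Lum without sham 1 (0.0538) and for Dpt with totals without mitochondrial genes (0.0536). For the whole list, the median log2 fold change was -0.78. The 10 macrophage markers summed to 133 and 67.7 CPM in sham and to 35.6 and 67.8 in TAC, with none called by edgeR and 6 at an unadjusted p under 0.05, against 27.5% of all genes tested. The 4 lymphatic endothelial markers summed to 123 and 104 CPM in sham and to 72.3 and 94.4 in TAC, most of it Prox1. The 6 mast cell markers summed to 4.71 and 3.86 CPM in sham and to 2.01 and 2.49 in TAC. The 5 epicardial and mesothelial markers overlapped between the groups, at 7.40 and 4.17 CPM in sham and 3.95 and 6.99 in TAC. None of the 10 cardiomyocyte markers was called by edgeR, 4 were at an unadjusted p under 0.05 (27.5% of all genes were), and their median log2 fold change was 0.04.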
